A study of Mus musculus with 38 samples.

Results

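Chromatin at the genes through which the liver receives and transmits growth hormone was compared between male and female CD-1 mice, for 6 histone marks. All peaks that overlapped 7 windows of the mm9 genome by 1 bp or more were taken. The windows were chr15:3250000-3560000 (Ghr), chr15:10090000-10300000 (Prlr), chr10:87300000-87420000 (Igf1), chr10:94840000-94900000 (Socs2), chr9:107180000-107220000 (Cish), chr11:100620000-100770000 (Stat5a and Stat5b) and chr16:23940000-24020000 (Bcl6). They held 551 of the 384017 peaks in all 12 lists, 282 in the male lists and 269 in the female lists. Of these, 529 lay wholly inside a window and the others crossed an edge. The livers came from males and females of this outbred stock at 8 weeks of age. Chromatin immunoprecipitation and sequencing gave 4 male and 3 female libraries for H3K4me3 and for H3K4me1, 3 male and 3 female for H3K27ac and for H3K27me3, and 2 male and 2 female for H3K36me3 and for H3K9me3. The libraries of a mark and sex were pooled into 1 list by the authors, so the values have no spread between animals, and no test between animals could be run.

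Growth hormone from the pituitary binds its receptor, Ghr, on hepatocytes and activates the kinase JAK2, which phosphorylates STAT5a and STAT5b. The phosphorylated STAT5 proteins enter the nucleus and bind DNA at the consensus TTCNNNGAA. Their targets include Igf1, which encodes the main circulating mediator of growth, and Socs2 and Cish, which encode inhibitors that feed back on the receptor. Prlr encodes the prolactin receptor, a close relative of Ghr that also signals through JAK2 and STAT5. Bcl6 encodes a transcriptional repressor that binds many of the same sites as STAT5. In rodents, growth hormone is released in pulses in males and more continuously in females, and this pattern sets much of the sex difference in liver gene expression. H3K4me3 lies at promoters, H3K27ac at active promoters and enhancers, H3K4me1 mainly at enhancers, and H3K36me3 over transcribed gene bodies. H3K27me3 and H3K9me3 lie over silent chromatin.

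RefSeq promoter sequences (GRCm38.p6, from 250 bases before to 50 bases after the start) were found for 7 of the 8 genes, 13 promoters in all, and not for Socs2. The STAT5 consensus TTCNNNGAA reads the same on both strands, so that 1 search covers both. It was present in 4 of the 13 promoters, and in 8.3% of the 32851 promoters of this length in the table. Below, the promoters of Cish and Bcl6 and the first 2 promoters of Prlr are shown, because they hold the consensus or carry the largest difference in H3K4me3 between the sexes among the placed starts of the 8 genes. Capitals mark the consensus, and each sequence runs 5′ to 3′ on the strand of the gene.
Cish, chr9:107296409-107296708, plus strand: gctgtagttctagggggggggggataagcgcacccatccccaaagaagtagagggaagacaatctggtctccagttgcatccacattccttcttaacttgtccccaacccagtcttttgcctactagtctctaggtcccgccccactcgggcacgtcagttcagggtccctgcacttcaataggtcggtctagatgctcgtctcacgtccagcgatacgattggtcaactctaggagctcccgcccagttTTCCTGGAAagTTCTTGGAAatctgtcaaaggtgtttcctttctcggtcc
Bcl6 upstream start, chr16:23988803-23989102, minus strand: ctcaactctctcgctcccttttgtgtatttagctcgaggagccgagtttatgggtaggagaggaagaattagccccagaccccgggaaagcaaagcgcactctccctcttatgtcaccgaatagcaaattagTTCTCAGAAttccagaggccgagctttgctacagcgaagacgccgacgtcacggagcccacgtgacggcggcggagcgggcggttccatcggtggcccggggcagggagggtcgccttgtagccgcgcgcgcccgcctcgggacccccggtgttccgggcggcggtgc
Bcl6 downstream start, chr16:23981234-23981533, minus strand: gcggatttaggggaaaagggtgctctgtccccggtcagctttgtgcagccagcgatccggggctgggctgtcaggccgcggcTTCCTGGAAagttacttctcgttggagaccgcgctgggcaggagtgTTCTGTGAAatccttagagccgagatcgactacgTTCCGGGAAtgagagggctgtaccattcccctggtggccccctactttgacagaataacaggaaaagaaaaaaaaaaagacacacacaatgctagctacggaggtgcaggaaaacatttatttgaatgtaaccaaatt
Prlr first start, chr15:10176988-10177287, plus strand: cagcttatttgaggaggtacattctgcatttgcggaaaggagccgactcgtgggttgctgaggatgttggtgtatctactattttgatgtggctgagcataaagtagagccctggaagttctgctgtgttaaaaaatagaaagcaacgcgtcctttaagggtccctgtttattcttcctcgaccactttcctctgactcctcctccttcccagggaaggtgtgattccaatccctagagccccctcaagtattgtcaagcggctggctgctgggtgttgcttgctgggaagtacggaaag
Prlr second start, chr15:10223656-10223955, plus strand: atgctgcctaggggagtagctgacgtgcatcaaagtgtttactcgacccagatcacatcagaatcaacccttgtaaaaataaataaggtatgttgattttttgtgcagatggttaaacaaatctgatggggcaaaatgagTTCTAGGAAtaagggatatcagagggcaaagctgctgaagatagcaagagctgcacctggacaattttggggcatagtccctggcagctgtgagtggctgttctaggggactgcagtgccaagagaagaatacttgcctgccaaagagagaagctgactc

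Cish, a feedback inhibitor, had 2 copies of the consensus, whose first bases lay at positions 1 and 12 from the start. The promoter at the downstream start of Bcl6 had 3 copies, at positions -168, -122 and -88. Of all promoters in the table, 0.457% held at least 2 copies. The upstream Bcl6 promoter had 1 copy at position -118, and the second Prlr promoter had 1 copy at position -110. The promoters of Ghr, Igf1, Stat5a and Stat5b and the first promoter of Prlr held no match in these windows of bases. Peaks below have mm9 coordinates, which differ from the GRCm38 coordinates of these sequences. Starts were placed in mm9 by matching promoter sequences to reads of an IgG control library aligned to mm9, which placed 10 of the 13 promoters. The Cish promoter, 1 of the 2 Ghr promoters and 1 of the 2 Stat5a promoters were not placed.

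The lists held between 1526754 and 20459697 reads in peaks. The male and female lists held 5087982 and 5084261 for H3K4me3, and 19253391 and 12837285 for H3K27ac. They held 12562838 and 20459697 for H3K4me1, and 14557426 and 12881429 for H3K36me3. Counts given as reads are not scaled by these totals, so for marks with unequal totals they cannot be compared directly between the sexes. The livers carried the marks of hepatocytes. Of 9 hepatocyte marker genes with a placed start, 8 had H3K4me3 and H3K27ac there in the male and in the female lists. Of these, Alb and Tdo2 had H3K4me3 that was called male in the authors' deposited table. There, 4.46% of the male and 1.34% of the female H3K4me3 list were called male. The 3 placed immune markers (Clec4f, Cd5l and Ptprc) had no H3K4me3 at the start in either list, and Ptprc had a small H3K27ac peak of 79 reads in males and 57 in females. The endothelial marker Stab2 and the cholangiocyte marker Epcam had small H3K4me3 peaks in the male list alone, of 32 and 60 reads. Stab2 also had H3K27ac at the start in both lists, with 109 reads in males and 107 in females. The stellate cell marker Lrat had a small H3K4me3 peak of 62 reads in males and 36 in females. Neurod1 and Pax6, genes of other tissues, had H3K27me3 at the start and neither H3K4me3 nor H3K27ac. H3K27me3 also lay at the starts of Clec4f, Cd5l, Stab2, Lrat and Epcam in both lists, and of Ptprc in the female list alone. None of the 9 hepatocyte markers had it at the start. In the 1 IgG library with aligned reads, from a male of 7 to 8 weeks in an earlier record, read density over the windows was 0.937 to 1.49 times the autosomal mean.

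The authors' deposited table gives for each peak the male signal over the female signal, on the log2 scale, with a p and a call, so that positive ratios mean more of the mark in males. For each of the 384017 peaks, the call was met where the ratio was 1 or higher (male) or -1 or lower (female) and the p fell under 0.001. That p compares pooled libraries. In whole liver, a lower signal from fewer cells with a mark and one from less of the mark in each cell cannot be told apart. In the authors' deposited table, 29 of the 551 peaks were called male, against 2.54% of all peaks, and 14 were called female, against 1.54% of all peaks. Of the 29, 22 stood in male lists and 7 in female lists. The Ghr window held 21 of the 29 male calls and no female call in the authors' deposited table. The Prlr window held 5 male and 7 female calls in the authors' deposited table, the Bcl6 window 1 and 3, the Stat5a and Stat5b window 1 and 2, the Cish window 1 and 1, and the Socs2 window 0 and 1. The Igf1 window held 0 male and 0 female calls in the authors' deposited table.

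**Figure D1:**
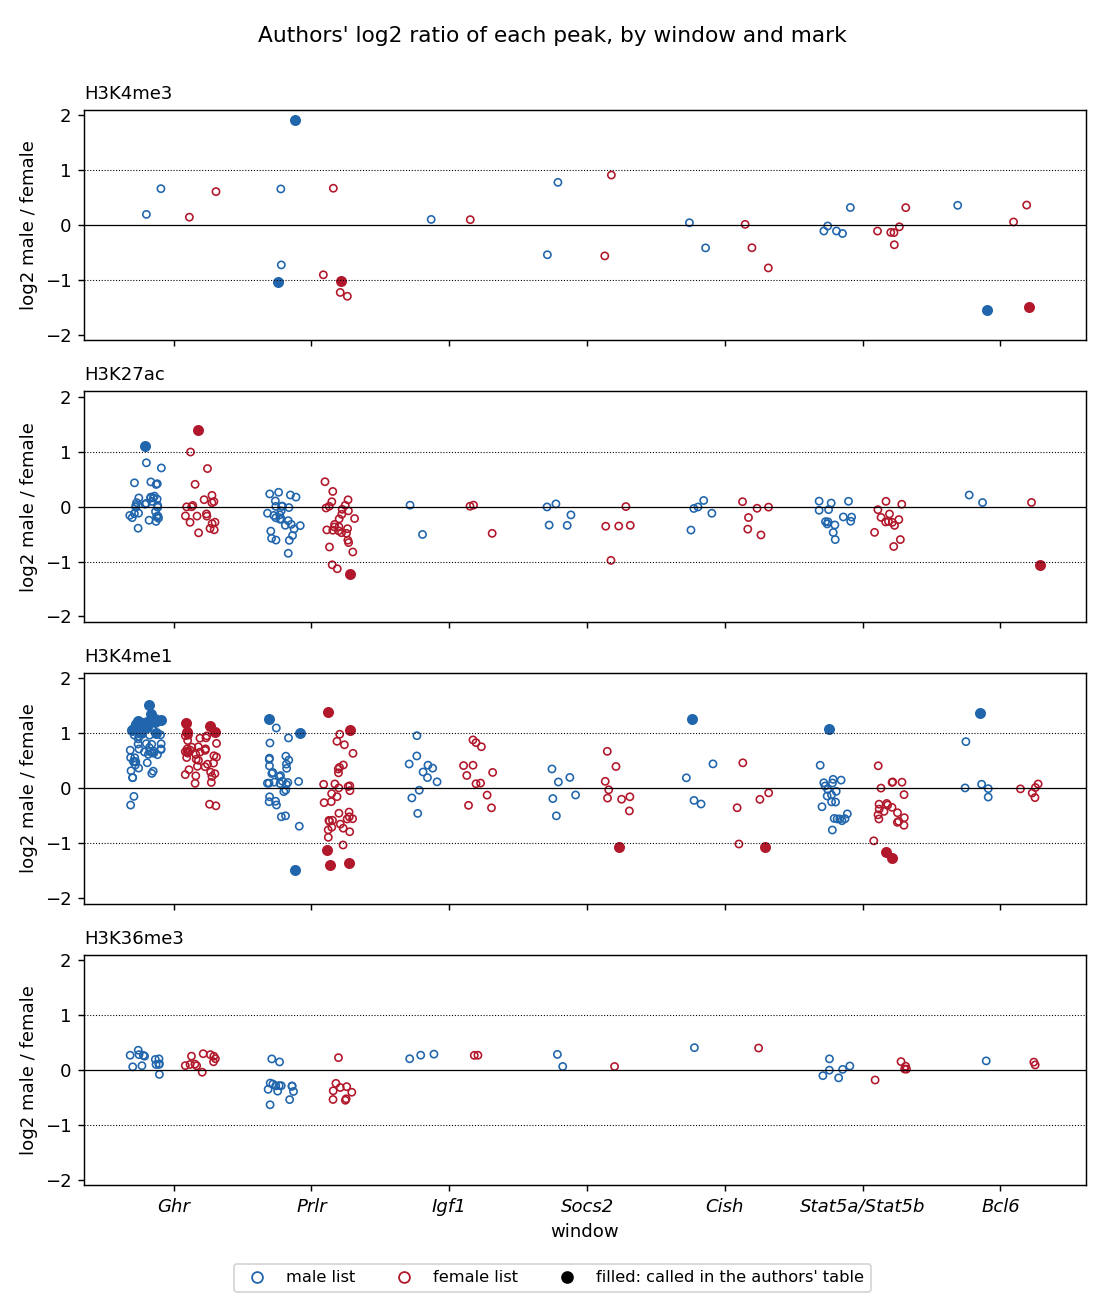
The log2 ratio of male over female signal in the authors' deposited table (vertical axis) for each peak of the 4 active marks in the 7 windows (horizontal axis), male lists in blue left of female lists in red, filled where the table calls the peak. Dotted lines mark ratios of 1 and -1 on the log2 scale. H3K4me1 peaks of Ghr lie almost all above 0, H3K36me3 peaks of Prlr mostly below 0, and all Igf1 peaks lie between the dotted lines.

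At Ghr, which encodes the growth hormone receptor, 1 acetylated domain upstream and 15 of 51 male-list H3K4me1 peaks were called male, while H3K4me3 at the start and H3K36me3 over the body were not called. The H3K4me3 peak over the placed start had 1794 reads at chr15:3527970-3533914 in the male list and 1512 reads at chr15:3529433-3533852 in the female list. Their ratios in the authors' deposited table, 0.19 and 0.14, were not called. H3K27ac over the start had 3270 reads in males and 1740 in females, with ratios of 0.40 and 0.41 in the authors' deposited table and no call. A second, small H3K4me3 peak just upstream had 87 reads in the male list and 52 in the female list, with ratios of 0.66 and 0.61 in the authors' deposited table. H3K36me3 islands covered 80.6% of the window in the male list and 80.8% in the female list. Their ratios in the authors' deposited table ran from -0.08 to 0.36 in the male list and from -0.04 to 0.30 in the female list, with 0 of 13 and 0 of 11 called. The island with the most reads was 65.0 kb wide with 3792 reads in males and 64.6 kb wide with 2811 reads in females, at ratios of 0.25 and 0.25 in the authors' deposited table. Of the whole male H3K36me3 list 0.556% was called male and 0.0353% female, and of the female list 0.00525% and 0.451%.

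Upstream of Ghr stood the one acetylated stretch of the window that was called. A male H3K27ac domain of 13.7 kb lay at chr15:3549646-3563341, at -30.0 to -16.3 kb from the start, with 3340 reads. In the female list the same stretch held 3 separate peaks with 38, 593 and 314 reads. The male domain had a ratio of 1.11 in the authors' deposited table (p = 1.8e-103) and was called male. The 3 female peaks had ratios of 0.69, 0.99 and 1.39 in the authors' deposited table, and the last one was called male. No other call was made among the 32 male-list and 21 female-list H3K27ac peaks of the window in the authors' deposited table, where 1.74% of the male list and 0.608% of the female list were called male. Of the 4 H3K4me1 peaks under the domain in the male list, 2 were called male, at ratios of 1.12 and 1.19 in the authors' deposited table. In the female list 1 of 2 was called male, at 1.14 in the authors' deposited table. With a straight line of the ratio on GC content removed, a step chosen after seeing the data, these 3 H3K4me1 calls were lost, at 0.85, 0.90 and 0.83. The male domain crosses the edge of the window. Just past its far end, at chr15:3564907, lay the placed start of Gm41255, a gene on the same strand as Ghr. Inside Ghr, the H3K27ac domain with the most reads measured 39.9 kb in males, with 8640 reads, and 33.1 kb in females, with 5270 reads. Its ratios were 0.10 and 0.09 in the authors' deposited table, both close to 0.

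Most H3K4me1 peaks over Ghr had ratios above 0 that fell short of the call. Ratios were above 0 in 49 of 51 male-list peaks and 40 of 42 female-list peaks, while in the whole lists 62.9% and 42.1% of peaks were, by the authors' deposited table. The median ratios were 0.72 in the male list and 0.65 in the female list, where the whole lists had 0.16 and -0.09 in the authors' deposited table. The authors' deposited table called 15 of the 51 male-list peaks and 4 of the 42 female-list peaks male, against 8.21% of the male and 1.25% of the female H3K4me1 list. The highest ratios of the male list were 1.52 at chr15:3268066-3268989, 1.36 at chr15:3511066-3512167 and 1.27 at chr15:3309350-3310525 in the authors' deposited table. These peaks were small, with 53, 94 and 68 reads. The H3K4me1 peak with the most reads had 2741 reads in the male list and 2907 in the female list, with ratios of 0.61 and 0.66 in the authors' deposited table. Of the male-list peaks, 20 of 51 had no overlapping female peak, against 15.2% of the male list, and of the female-list peaks 1 of 42 had no overlapping male peak, against 28.4% of the female list. All H3K4me1 peaks of the window together, with or without a sex call, covered 166.3 kb in the male list and 120.2 kb in the female list. The IgG reads of the window had a GC content of 37.3%, below the 39.3% of the autosomes. With the GC line removed, 5 of the 51 male-list H3K4me1 peaks passed the male call against 5.32% of the list, and 47 of 51 stayed above 0. None of the 42 female-list peaks passed it then, and 36 of 42 stayed above 0.

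**Figure D2:**
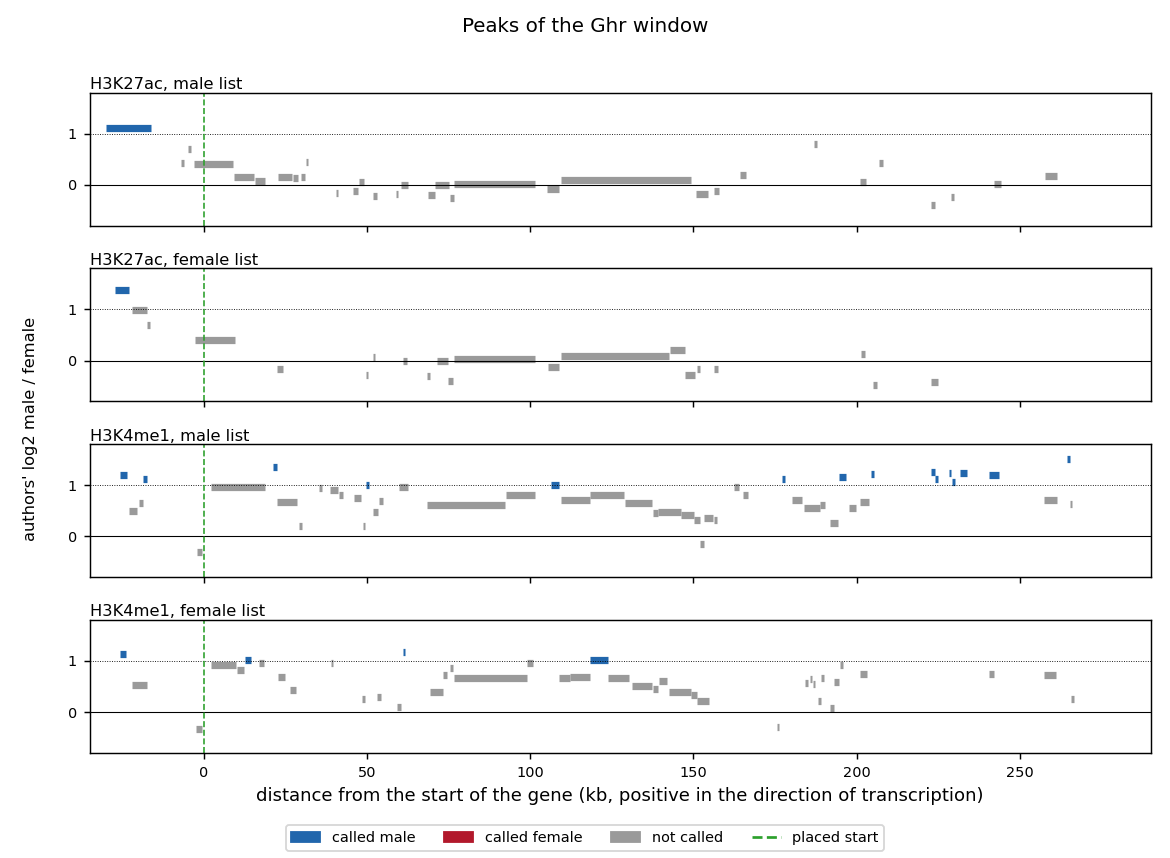
Peaks of H3K27ac and H3K4me1 in the Ghr window by distance from the placed start in kb (horizontal axis) and by the log2 ratio of male over female signal in the authors' deposited table (vertical axis), male list above female list for each mark. Blue bars were called male, grey bars were not called, and the dashed line is the start. The H3K27ac domain from -30.0 to -16.3 kb stands at 1.11, while wide H3K27ac domains inside the gene lie near 0 where H3K4me1 peaks lie mostly above 0.

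At Prlr, the prolactin receptor gene, H3K4me3 at the first start was called higher in females. H3K36me3 over the body had negative ratios that were not called, and calls inside the gene ran both ways. The H3K4me3 peak at the first placed start had 541 reads at chr15:10106797-10109987 in the male list and 1115 reads at chr15:10106718-10110312 in the female list. It was called female in both lists of the authors' deposited table, with ratios of -1.03 (p = 3.5e-44) and -1.01 (p = 4.5e-43). Female calls made up 0.499% of the male and 1.25% of the female H3K4me3 list in the authors' deposited table. The H3K4me3 peak at the second start had 166 reads in the male list and 365 in the female list, with ratios of -0.73 and -0.91 in the authors' deposited table, not called. Just downstream of it, 2 small H3K4me3 peaks of 41 and 29 reads stood in the female list alone, with ratios of -1.30 and -1.23 in the authors' deposited table and no call. The third placed start had no H3K4me3 peak in either list. H3K27ac over the first start differed far less than H3K4me3, with 1900 reads in the male peak and 1510 in the female peak and ratios of -0.12 and -0.14 in the authors' deposited table.

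One H3K4me3 peak inside Prlr went the other way. At chr15:10179017-10181085, which ends 74.1 kb downstream of the first start, the male list had a peak of 184 reads and the female list had no peak. Its ratio was 1.92 in the authors' deposited table (p = 2.6e-19), and it was the only male call among the 4 H3K4me3 peaks of the male list at Prlr, against 4.46% of that list. Of the female H3K4me3 list 1.34% was called male, and none of the 22 peaks of that list in the windows was. Other marks over the male-only peak were not called. H3K27ac peaks there had 1460 reads in males and 1150 in females, with ratios of 0.17 and 0.09 in the authors' deposited table. H3K4me1 peaks there had ratios of 0.11 in the male list and 0.03 in the female list of the authors' deposited table. The remaining H3K4me3 peak of the window, found in both lists, lay over the start of the neighbour Agxt2, a liver aminotransferase gene, with 517 reads in males and 317 in females and ratios of 0.66 and 0.67 in the authors' deposited table.

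Calls of distal marks at Prlr ran both ways along the gene. A female-only H3K27ac peak at chr15:10121336-10123162, 14.3 kb downstream of the first start, had 99 reads. The authors' deposited table called it female at -1.24, the 1 such call among 28 female-list peaks against 3.02% of the list. No male-list H3K27ac peak in the 7 windows was called female in the authors' deposited table, against 0.861% of that list. The 18.5 kb female H3K27ac domain downstream of it had 2280 reads and a ratio of -0.37 in the authors' deposited table. The male list had 2 peaks in that stretch, with 1350 and 1030 reads. The male H3K27ac peak with the most reads, 2070, lay over the second start, at a ratio of -0.23 in the authors' deposited table. The H3K4me1 peaks with the most reads, 592 in the male list and 1654 in the female list, had ratios of 0.11 and 0.03 in the authors' deposited table. H3K4me1 peaks called female lay 18.1 to 60.1 kb from the first start, and those called male lay 125 to 166 kb from it. The 3 female calls of the female list had ratios of -1.13, -1.36 and -1.39 in the authors' deposited table, with 161, 126 and 348 reads, against 3.88% of the list called female. The 1 female call of the male list had 40 reads and a ratio of -1.50 in the authors' deposited table, against 0.501% of the list. Among the male calls, the 2 of the male list reached 1.27 with 43 reads, and the 2 of the female list had ratios of 1.06 and 1.39 in the authors' deposited table. With the GC line removed, 1 call of each list was lost, at 0.61 in the male list and 0.71 in the female list. H3K36me3, which marks the transcribed body, had ratios above 0 in 2 of 14 male-list and 1 of 9 female-list islands of the window in the authors' deposited table. In the whole lists 61.8% and 37.8% were above 0. The islands above 0 lay upstream of the first start, at chr15:10095800-10097599, or past the start of Agxt2, at chr15:10292600-10307799 and chr15:10292200-10314999. Between the first start and that of Agxt2, all H3K36me3 ratios were negative in both lists. None of the H3K36me3 islands of the window was called. The islands with the most reads had 1524 reads in the male list and 2791 in the female list, at ratios of -0.24 and -0.31 in the authors' deposited table. Over all islands of the window, those past the Agxt2 start included, the median ratios were -0.29 in the male list and -0.38 in the female list of the authors' deposited table. These islands covered 72.9% of the window in the male list and 84.6% in the female list.

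**Figure D3:**
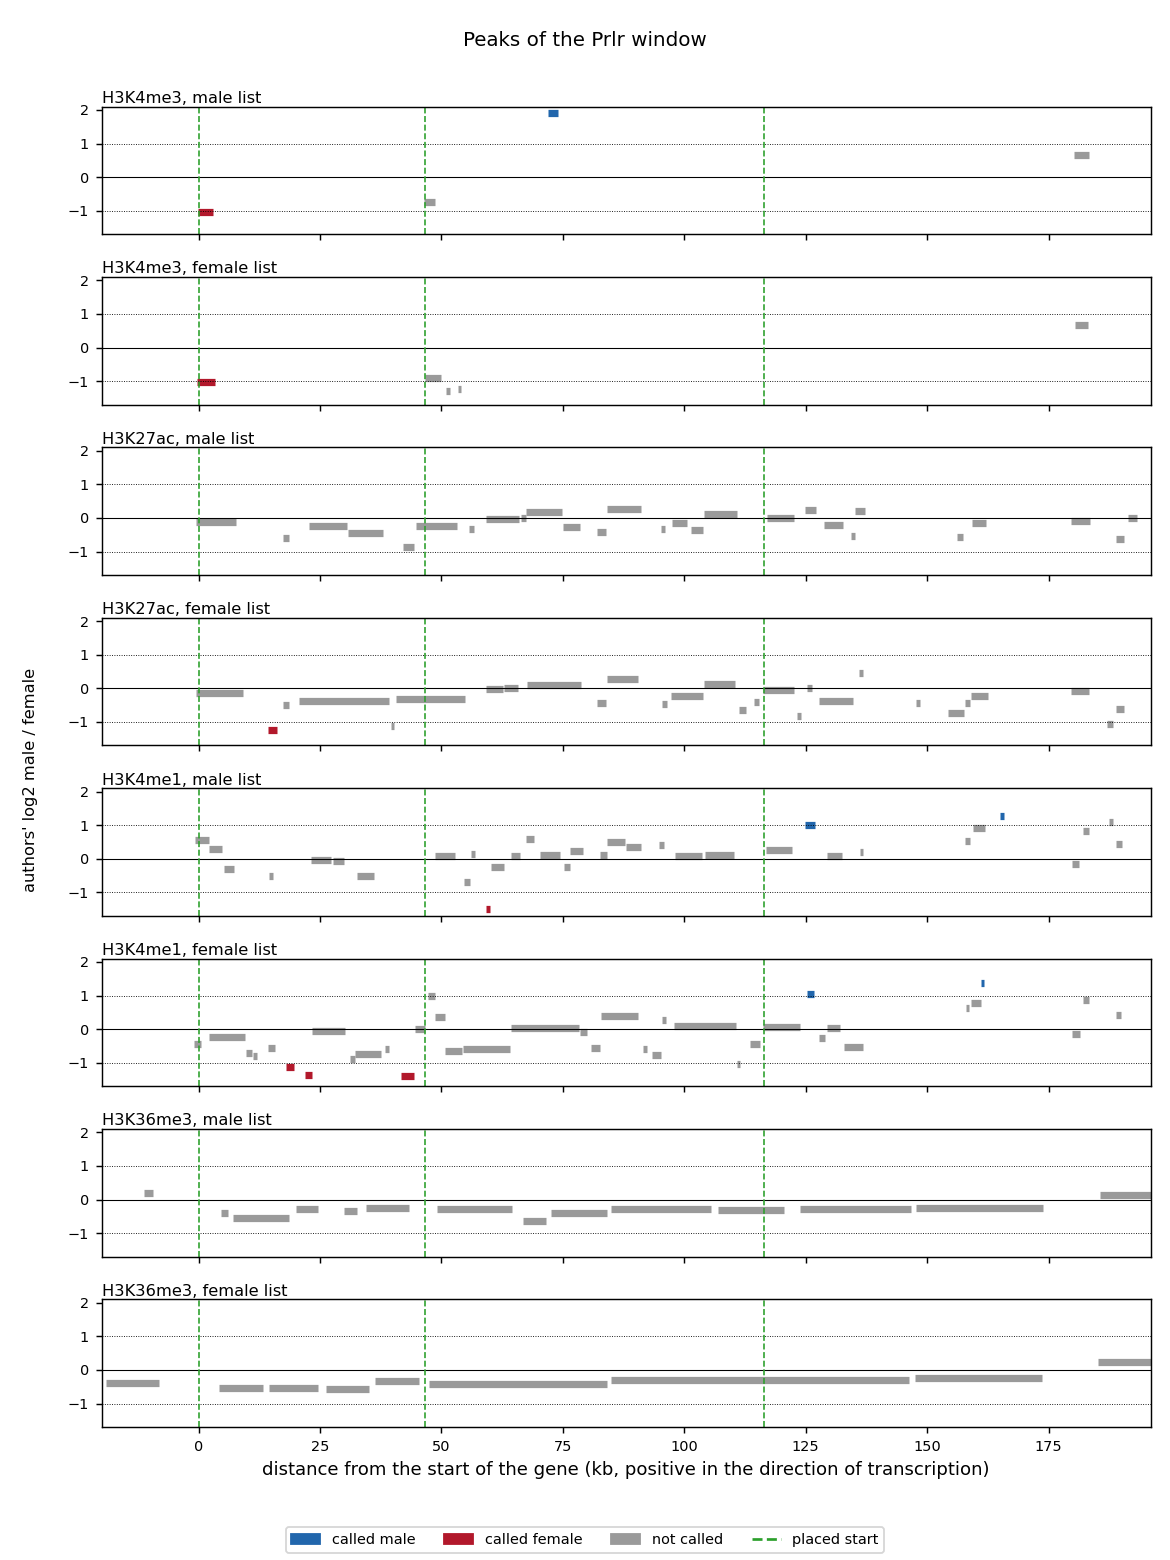
Peaks of the 4 active marks in the Prlr window by distance from the first placed start in kb (horizontal axis) and by the log2 ratio of male over female signal in the authors' deposited table (vertical axis), male list above female list for each mark. Blue bars were called male, red bars called female, grey bars were not called, and dashed lines are placed starts. H3K4me3 at the first start lies at -1.03 and -1.01, a male-only H3K4me3 peak inside the gene at 1.92, and H3K36me3 lies mostly below 0.

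Igf1, the gene of the main hepatic growth factor, carried one of the widest H3K27ac domains of either list. None of the 35 peaks of its window was called, where 2.54% of all peaks were called male and 1.54% female. For so few peaks, the absence of calls is close to these shares. A single H3K27ac domain at chr10:87315335-87400189 in males measured 84.9 kb and held 27600 reads. In females it ran 79.7 kb at chr10:87316745-87396435 with 18700 reads. It ranked second in width and in reads among the 40903 male H3K27ac peaks, and 1 in width and in reads among the 38306 female ones. Per length the domain had 325 reads per kb in males and 235 in females, where the list medians were 88.4 and 74.1 reads per kb. Reads of this mark were partly deposited with 3 significant digits and are approximate. The ratios were 0.03 in either list of the authors' deposited table. The H3K4me3 peak over the start was 7.01 kb wide with 1832 reads in males and 7.82 kb wide with 1714 reads in females, with ratios of 0.10 and 0.10 in the authors' deposited table. It also spanned the start of Igf1os, a noncoding RNA gene beside Igf1. H3K4me1 ratios ran from -0.46 to 0.96 in the male list and from -0.36 to 0.88 in the female list of the authors' deposited table. Of these peaks, 0 of 11 and 0 of 12 were called. In the whole male H3K4me1 list 8.21% were called male and 0.501% female, and in the female list 1.25% and 3.88%. The H3K4me1 peak with the most reads had 2030 reads in males and 2777 in females, at ratios of 0.12 and 0.09 in the authors' deposited table. H3K36me3 islands had ratios of 0.20 to 0.29 in the male list and 0.26 to 0.27 in the female list of the authors' deposited table.

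At the windows of the feedback inhibitors Socs2 and Cish, the leading H3K4me3 peak had negative ratios that fell short of the call. The H3K4me3 peak with the most reads in the Socs2 window had 586 reads at chr10:94876319-94881248 in the male list and 867 reads at chr10:94876542-94881787 in the female list. Its ratios were -0.54 (p = 7.7e-12) and -0.56 (p = 7.5e-13) in the authors' deposited table. The start placed inside this peak is that of the noncoding RNA gene 5730420D15Rik, and the start of Socs2 was not placed. H3K27ac over this H3K4me3 peak had 1210 reads in males and 1080 in females, unscaled counts from lists of unequal depth. The H3K27ac ratios were -0.34 and -0.34 in the authors' deposited table. A smaller H3K4me3 peak of the window, with 83 reads in males and 43 in females, had ratios of 0.78 and 0.91 in the authors' deposited table. One H3K4me1 peak at chr10:94870188-94875083, with 589 reads and no male partner, was called female at -1.07 in the authors' deposited table. It was 1 of 9 female-list H3K4me1 peaks of the window, where 3.88% of that whole list was called female. A female-only H3K27ac peak within that H3K4me1 peak had 149 reads and a ratio of -0.98 in the authors' deposited table, short of the call. The H3K36me3 island with the most reads in the Socs2 window had 665 reads in males and 562 in females, at ratios of 0.06 and 0.06 in the authors' deposited table.

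In the Cish window the H3K4me3 peak with the most reads had 863 reads at chr9:107197907-107202269 in the male list and 1115 reads at chr9:107198346-107202213 in the female list. Its ratios were -0.42 (p = 6.0e-10) and -0.42 (p = 9.5e-10) in the authors' deposited table. H3K27ac over that peak did not lean to females, with 2081 reads in males, 1465 in females and ratios of -0.01 and -0.01 in the authors' deposited table. The small H3K36me3 island of the window had 209 reads in males and 134 in females, with ratios of 0.41 and 0.40 in the authors' deposited table and no call. The other H3K4me3 peaks were that at the start of Mapkapk3, a kinase gene, with ratios of 0.04 and 0.01 in the authors' deposited table, and a female-only peak of 38 reads. The H3K4me1 peak with the most reads had 969 reads in males and 2028 in females, at ratios of -0.29 and -0.20 in the authors' deposited table. Both calls of the Cish window were H3K4me1 peaks without a partner, 1 of 5 in the male list and 1 of 6 in the female list. In the whole lists, 8.21% of the male list was called male and 3.88% of the female list female. Without a partner were 15.2% and 28.4%. The called peaks had 39 reads in the male list and 121 in the female list, with ratios of 1.27 and -1.06 in the authors' deposited table.

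Stat5a and Stat5b, which encode the transcription factors of the pathway, had H3K4me3 ratios close to 0 at their starts. H3K4me3 at the Stat5a start had 298 reads in males and 331 in females, with ratios of -0.11 and -0.14 in the authors' deposited table. The upstream Stat5b start had 469 reads in males and 466 in females, with ratios of -0.02 and -0.03 in the authors' deposited table. The downstream Stat5b start had 752 reads in males and 816 in females, with ratios of -0.11 and -0.11 in the authors' deposited table. The other H3K4me3 peaks of the window had 48 and 218 reads in males and 48, 238 and 21 reads in females. Of 5 male and 6 female H3K4me3 peaks and of 14 male and 13 female H3K27ac peaks, none was called in the authors' deposited table. In the whole male H3K4me3 list 4.46% were called male and 0.499% female, and in the female list 1.34% and 1.25%. For H3K27ac the shares were 1.74% and 0.861% in the male list, and 0.608% and 3.02% in the female list. For so few peaks, the absence of calls is close to these shares. The H3K27ac domain over the downstream Stat5b start had 2360 reads in males and 2020 in females, with ratios of -0.27 and -0.28 in the authors' deposited table. The H3K27ac peak over the upstream start had 1510 reads in males and 981 in females, with ratios of 0.10 and 0.10 in the authors' deposited table. The H3K4me1 peak with the most reads had 1535 reads in males and 4494 in females, at ratios of -0.14 and -0.12 in the authors' deposited table. The H3K36me3 island with the most reads in the window had 2213 reads in males and 2025 in females. H3K36me3 ratios lay between -0.15 and 0.20 in the male list and between -0.18 and 0.15 in the female list of the authors' deposited table. These islands were not assigned to genes, and some ran past the window, with 88.0 and 105.2 kb in total and 77.6 and 75.6 kb inside it. The start of Stat3, which is transcribed towards the window, was placed past its edge, at chr11:100800855. The 3 calls of the window were H3K4me1 peaks without a partner, with 42 reads in the male list and 62 and 99 in the female list. Their ratios were 1.07 in the male list, where 8.21% of peaks were called male, and -1.27 and -1.16 in the female list, where 3.88% were called female, in the authors' deposited table. With the GC line removed, the last of these was lost at -0.95.

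**Figure D4:**
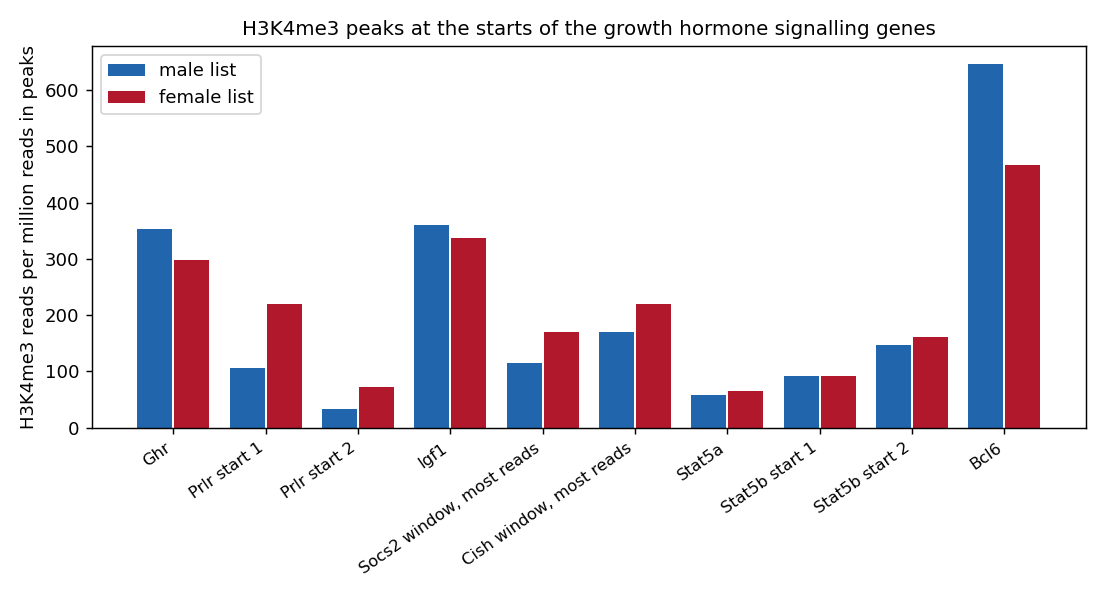
H3K4me3 reads per 1000000 reads in peaks (vertical axis) in the peak over each placed start, or in the peak with the most reads where no start was placed (Socs2 and Cish), male list in blue left of female list in red. Bars are single values of pooled lists with no spread. The first Prlr start has 106 in males and 219 in females, Bcl6 has 646 and 467, and the Stat5b starts have nearly equal bars.

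Bcl6, the repressor gene, had a very wide H3K4me3 domain over its starts, with ratios above 0 and no call, and a second H3K4me3 site inside the window that was called higher in females. The H3K4me3 domain spanned both placed starts. It was 15.3 kb wide with 3287 reads at chr16:23979048-23994343 in males and 12.5 kb wide with 2372 reads at chr16:23979667-23992196 in females. It ranked 4 in width among 16018 male peaks, and second in width among 18942 female peaks. The ratios were 0.36 and 0.36 in the authors' deposited table (p = 3.5e-20 and p = 1.6e-19), below the call. The female list had a further peak of 153 reads just upstream of the domain, at a ratio of 0.06, by the authors' deposited table. From 14.4 to 17.0 kb downstream of the upstream start, another H3K4me3 peak had 215 reads at chr16:23972275-23974219 in the male list and 662 reads at chr16:23971917-23974504 in the female list. It was called female in both lists of the authors' deposited table, with ratios of -1.54 (p = 2.3e-47) and -1.49 (p = 4.9e-47). Of the whole male and female H3K4me3 lists, 0.499% and 1.25% were called female. H3K27ac and H3K4me1 over this site were not called. The H3K27ac domain that covers both H3K4me3 sites was 29.8 kb wide with 11600 reads in males and 28.2 kb wide with 7680 reads in females, with ratios of 0.07 and 0.08 in the authors' deposited table. H3K4me1 over the site had ratios of -0.16 in the male list and -0.17 in the female list of the authors' deposited table. H3K36me3 islands, which began 9.74 kb downstream in the male list and 8.14 kb downstream in the female list, had a ratio of 0.16 in the male list and ratios of 0.09 and 0.14 in the female list of the authors' deposited table.

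Upstream of Bcl6, at -23.4 to -20.8 kb, lay 2 small called peaks of single lists. A female-only H3K27ac peak at chr16:24010835-24012328 had 81 reads and was called female at -1.07 by the authors' deposited table. A male-only H3K4me1 peak beside it, at chr16:24009695-24010572, had 45 reads and was called male at 1.37 by the authors' deposited table. The first was 1 of 2 female-list H3K27ac peaks of the window, where 3.02% of that whole list was called female. The second was 1 of 6 male-list H3K4me1 peaks, where 8.21% of that whole list was called male. With the GC line removed, the female call was lost at -0.99.

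**Figure D5:**
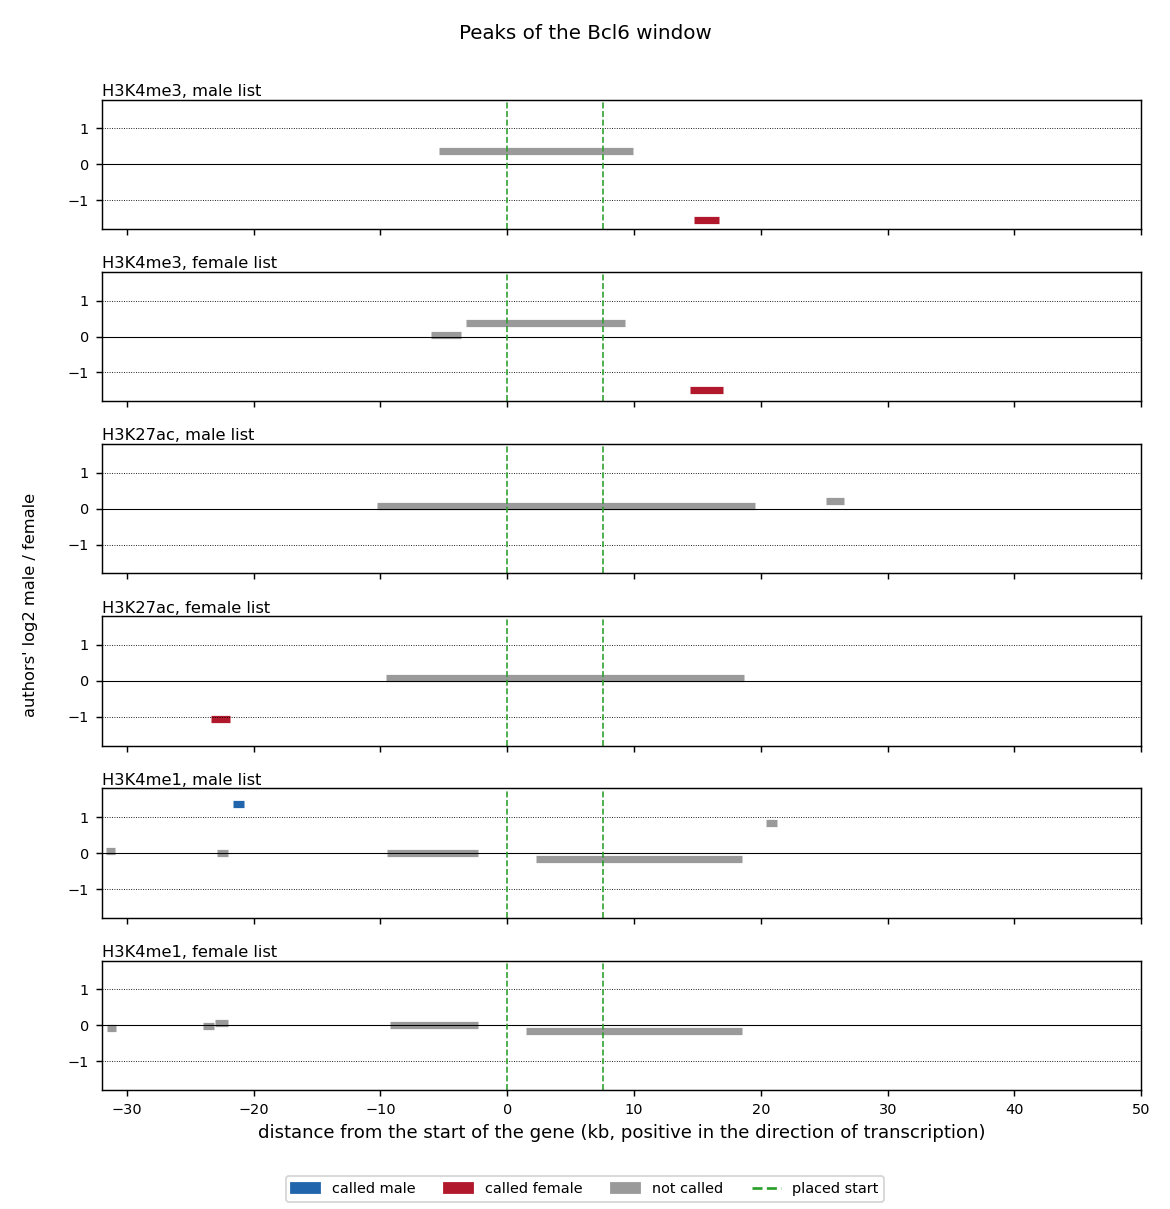
Peaks of H3K4me3, H3K27ac and H3K4me1 in the Bcl6 window by distance from the upstream placed start in kb (horizontal axis) and by the log2 ratio of male over female signal in the authors' deposited table (vertical axis), male list above female list for each mark. Blue bars were called male, red bars called female, grey bars were not called, and dashed lines are placed starts. H3K4me3 stands at 0.36 over the starts and at -1.54 and -1.49 at the downstream site, while the H3K27ac domain over both stands at 0.07 and 0.08.

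H3K27me3 was nearly missing from the 7 windows, and H3K9me3 covered a smaller share of them than of the autosomal span. H3K27me3, which covered 23.41% of the autosomal span in the male list and 23.99% in the female list, covered 0.495% of the windows in the male list and 1.32% in the female list. The Ghr, Prlr, Igf1, Socs2 and Bcl6 windows held no H3K27me3 island in either list. One island in the male list and 2 in the female list reached into a window from its edge. The Stat5a and Stat5b window was reached by an island of 428 reads in males and 447 in females, over the starts of Hcrt and Kcnh4, genes of nerve cells. The Cish window was reached by a female island of 1946 reads that spans the start of Dock3. H3K9me3 covered 4.0% of the windows in the male list and 1.32% in the female list, against 7.30% and 9.23% of the autosomal span. Each H3K9me3 list had 1 island that reached into the Socs2 window from its edge, with 138 reads in males and 152 in females. These islands covered 28.7% of that window in the male list and 6.67% in the female list. A female H3K9me3 island of 122 reads lay at the edge of the Prlr window. A male one of 151 reads covered 14.4% of the Stat5a and Stat5b window. None of these islands was called in the authors' deposited table. There, 0.798% of the male H3K27me3 list was called male and 0.00998% female, and of the female list 0.0205% and 0.041%. Of the male H3K9me3 list 3.42% was called male and 0.0276% female, and of the female list 0.0624% and 2.24%. The active marks covered far more, with H3K36me3 at 61.6% of the windows in males and 63.4% in females, H3K27ac at 47.0% and 44.8%, and H3K4me1 at 45.0% and 48.3%.

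Of the 18 H3K4me3 peaks in the male list, 17 overlapped H3K27ac and lacked H3K27me3, and of the 22 in the female list 21 did. The exception in either list was a peak of 48 reads at the edge of the Stat5a and Stat5b window that overlapped H3K27me3 and no H3K27ac. H3K4me1 overlapped 17 of the 18 male and all 22 of the female H3K4me3 peaks. H3K9me3 overlapped 2 of the 18 male and 0 of the 22 female ones. Both lay in the Stat5a and Stat5b window, and 1 of them was among the 17 with H3K27ac and without H3K27me3. Peaks of a mark that overlapped no peak of the opposite list numbered 53 of 282 in the male lists and 42 of 269 in the female lists. For H3K27ac these were 22 of 87 male-list peaks against 21.2% of that list, and 13 of 78 female-list peaks against 11.6%. For H3K4me1 they were 26 of 134 male-list peaks against 15.2% of that list, and 24 of 134 female-list peaks against 28.4%. For H3K4me3 they were 1 of 18 against 8.96% and 4 of 22 against 18.4%, and for H3K36me3 3 of 40 against 19.2% and 0 of 31 against 6.99%. For H3K27me3 they were 0 of 1 against 19.5% and 0 of 2 against 21.2%, and for H3K9me3 1 of 2 against 39% and 1 of 2 against 60.3%. In the Ghr window 16 of the 32 male H3K27ac peaks and 2 of the 21 female ones had no partner. In the Prlr window 3 of 27 male and 8 of 28 female H3K27ac peaks had no partner, and 2 of 34 male and 13 of 38 female H3K4me1 peaks, to be read against the same list shares.

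Of 40 other genes of growth hormone and insulin-like growth factor signalling, 23 had a placed start. Among these, H3K4me3 lay at the start of 21 genes in males and 20 in females, and H3K27ac at 22 in males and 21 in females. Igfbp1, which encodes a binding protein for IGF-1, was the 1 gene of the 23 with calls of H3K4me3 or H3K27ac within 5 kb of its start, all of them female. Its H3K4me3 peak had 266 reads in males and 643 in females, with ratios of -1.18 and -1.18 in the authors' deposited table. Its H3K27ac peak had 912 reads in males and 1670 in females, with ratios of -1.20 and -1.22 in the authors' deposited table. The other genes given here were chosen after their values were seen. Jak2, the kinase bound to the receptor, had ratios of 0.03 and 0.07 for H3K4me3 and -0.23 and -0.24 for H3K27ac in the authors' deposited table. Onecut1, which encodes the hepatocyte transcription factor HNF6, had a male-called H3K4me1 peak of 418 reads at its start (ratio 1.01 in the authors' deposited table), and H3K4me3 ratios of -0.75 and -0.75 in the authors' deposited table, not called. Igfals, whose product stabilises circulating IGF-1, had 623 H3K4me3 reads in males and 1229 in females, with ratios of -0.79 and -0.80 in the authors' deposited table, not called. Igfbp3, the gene of the main circulating carrier of IGF-1, had H3K27me3 at the start in both lists and neither H3K4me3 nor H3K27ac.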

How the data were processed

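ChIP-seq of 6 histone marks was made from livers of CD-1 males and females. Per the submitters' processing notes, the authors used Bowtie on mm9, and SICER 1.1 for islands of H3K36me3, H3K27me3 and H3K9me3. The files of a mark and sex were identical, so each of the 12 lists holds pooled libraries. Each deposited list gives per peak a read count, a fold enrichment ratio, a score, and a p-value or percent false discovery rate from the peak caller. It also gives the authors' deposited log2 sex ratio, its p-value and call, without saying how the ratio was normalized or tested. The IgG file holds aligned reads with their sequences.

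Computed here, with Python 3.11.15, pandas 2.3.3, NumPy 2.4.6 and SciPy 1.17.1, were overlaps with the 7 windows (minimum 1 bp), covered lengths, ranks within lists, partners (1 bp overlap) and summed reads per mark. Promoter sequences were placed in mm9 through IgG reads (24-base seed, at most 2 mismatches, agreement within 10 bp), which placed 113 of 182 promoters. Distances run along the strand of the gene, negative upstream. The overlap and placement steps were tested on simulated data. Reads in peaks stand in for depth, since the lists do not give library totals. Named were all 8 genes, every H3K4me3 peak, called peaks (for windows with over 12, the 3 with the largest ratio per mark), peaks with the most reads per mark, and islands of H3K27me3 and H3K9me3. The members and gene lists were chosen with earlier results of these data known.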

Additional observations from a re-analysis of the deposited data

How the results depend on the processing

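The lists were pooled by the authors, so no library could be left out. No paired analysis was possible because the columns hold pooled libraries with no replicate number. Requiring the peak centre or the whole peak inside a window, or moving the edges by 10 kb, gave 493 to 592 peaks, while the better-scoring 50% of each list left 303. With a threshold of 1.5-fold, 77 peaks were called male and 35 female, and 33 male-list H3K4me1 peaks of Ghr were called male. With p below 1e-05, 9 of those Ghr peaks were called. With a line on GC content removed, a step chosen after seeing the data, 15 peaks in all passed the male call, against 29 before. These 15 include peaks that were not called before. Among those Ghr peaks 5 passed it. Of the 43 single called peaks, 18 lost their call, with 0 reversed. Centring on shared peaks kept 37 of the 43. In the better-scoring 50%, coverage of the windows in the male and female lists was 5.74% and 5.8% (H3K4me3), 33.4% and 35.6% (H3K27ac), 36.4% and 41.3% (H3K4me1), and 54.6% and 58.6% (H3K36me3). It was 0.0% in males and 1.32% in females for H3K27me3, unchanged in females, and 0.0% in males and 0.412% in females for H3K9me3. Reads in peaks, summed over all windows, differed on the log2 scale by -0.05 for H3K27ac, 0.24 for H3K4me1 and 0.00 for H3K36me3. All peaks of these marks, found separately in each sex, covered 460.0 and 435.6 kb, 438.3 and 470.4 kb, and 644.8 and 690.4 kb in the male and female lists. The means were 10.6 and 11.6, 7.67 and 6.07, and 3.73 and 3.48 reads per kb and 1000000 reads in peaks. The differences were -0.01, 0.19 and 0.04 when scaled by reads in shared peaks, and 0.54, -0.47 and 0.18 unscaled, and no direction is drawn from them. IgG density over the Socs2 window was 1.22 with 1 read kept per position and strand, against 1.08. Called peaks with few reads, such as that of 39 reads at Cish, carry wide counting error.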
